A study of Mus musculus with 9 samples.

Results

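The comparison described here sets mouse Th1 cells against naive CD4+ T cells after both had received the same short stimulation. Its members were chosen by label, as the 3 arrays titled Th1 and the 3 titled Tnaive among the 9 arrays of the series. The other 3 arrays held Th17 cells. Each array measured total RNA of sorted cells on a 1-colour Agilent mouse array, and 19135 genes passed a filter on dim probes, 13115 of them under a gene symbol. Spleens and lymph nodes of BALB/c mice gave the CD4+ cells, which were enriched with magnetic beads and stimulated for 3 h. The stimulus was PMA, a phorbol ester, at 10 ng/ml together with ionomycin, a calcium carrier, at 500 ng/ml. Cells were then sorted by flow cytometry. Naive cells were gated as CD3+CD4+CD45RB high, with no gate on a cytokine stated. Th1 cells were gated as CD3+CD4+CD45RB low, with captured interferon gamma on their surface and no captured IL-17A. The Th1 cells were therefore taken directly from mice and defined by their secretion at sorting, not grown under polarising conditions. The naive cells are stimulated cells, so that every difference below is one between 2 stimulated populations. No age, sex or genetic change of the mice is given, and the animals and sorts that stand behind each replicate are not stated. A p-value below thus covers the spread among these samples alone, and that spread may be technical.

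Th1 cells are the helper T cells that secrete interferon gamma and activate macrophages against intracellular microbes. Their programme is known to rest on the transcription factor T-bet and on signals from IL-12 and IL-18. PMA and ionomycin replace the signals of the T cell receptor by activating protein kinase C and raising calcium, and a naive cell answers mainly with IL-2, whereas an antigen-experienced cell can release many cytokines within hours.

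A level below is the log2 intensity of a gene's brightest probe minus the 75th percentile of its array, so that the levels of different genes are not set against each other. A change is the Th1 minus the naive level on that log2 scale, ± its SE in limma, with 3 arrays in each group unless stated otherwise. A gene was called at an adjusted p under 0.05 (limma, Benjamini-Hochberg over all genes tested), and "rose" and "fell" are used only of called genes. A gene is written as above background where Agilent's software flagged its probe as well above background. Where no array of 1 group was above background, the change is given as a lower bound in fold, the mean of the brighter group over the lowest signal that was above background on each dim array. These bounds hold for the software's processed signal alone. A normexp background correction that adds 50 to each signal, with local backgrounds over 3 times the array median replaced by it, was run as an alternative. After it all 30 genes given a bound here kept their direction and call, at a fold smaller than the bound. Changes of other genes near background, given below with an SE, could be smaller after it too. Ikzf2 was then at 6.6 in place of 8.84, Hspa1a at -3.32 in place of -5.43 and Oasl1 at -4.055 in place of -6.071. The change of Ifng was 7.71 with either. Values given after normexp below come from this correction. In a sorted population, fewer cells that express a gene and less RNA in each cell cannot be told apart.

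The labels were checked first on Ifng, Cxcr3 and Ccl5. Ifng, which encodes the cytokine of the gate, stood at 1.34, 1.32 and 1.61 on the naive arrays and 9.28, 9.19 and 8.92 on the Th1 arrays. As the gate selected on its protein, this difference is no finding. Cxcr3, the chemokine receptor that marks Th1 cells, stood at -0.37, -0.48 and -0.37 on the naive arrays and 7.0, 6.52 and 6.35 on the Th1 arrays. Ccl5, a chemokine of effector T cells, stood at -0.58, 0.26 and 0.42 on the naive arrays and 4.89, 4.3 and 3.58 on the Th1 arrays. For all 3 genes every Th1 array lay above every naive array. All 8 T cell markers were above background in both groups, with Cd3e at a change of 2.2 ± 0.15 and Cd4 at 0.88 ± 0.14. Of the 8 markers 4 rose and 4 were not called. For 5 every Th1 array lay above every naive array, and for 1 every Th1 array lay below.

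Markers of other cell types were read as whole lists. A summed level adds the intensities of a list before the log2, so that its brightest probe weighs most. Of 8 B cell markers 5 were above background on no array of either group, Ms4a1, Cd79b and Pax5 among them, and the summed level of the list was -1.34 to -0.92 on the naive and -0.065 to 0.28 on the Th1 arrays, with Cd22 at a change of 1.37 ± 0.19. Of 6 monocyte and macrophage markers Lyz2 and Fcgr1 were above background on no array. The summed level was 4.09 to 4.12 on the naive and 4.69 to 5.0 on the Th1 arrays. Of the 4 measured markers 1 rose, Itgam at 1.07 ± 0.17, and 1 fell, Csf1r at -0.72 ± 0.15, with a median of 0.091. Dimmer probes of Itgam were at -0.44 (not called) and 0.61. Of 6 NK cell markers 4 were above background on no naive and 5 on no Th1 array, Ncr1 and Klrb1c in both, and the summed level was -0.6 to 0.025 on the naive and -1.91 to -0.89 on the Th1 arrays. Of 5 mast cell and basophil markers all but Kit were above background on no array of either group. The summed level of 8 dendritic cell markers was 7.39 to 7.45 on the naive and 7.47 to 7.67 on the Th1 arrays. Siglech was bright on every array, with a change of 0.195 (not called). Of the 5 measured 1 rose, Xcr1, and 2 fell, with a median of -0.42. The falls were those of the MHC class II genes Cd74 and H2-Ab1, by 2.61 ± 0.25 and 2.78 ± 0.23. Cd8b1 fell by 3.31 ± 0.16, while Cd8a was above background on no array. The summed level of 4 plasma cell markers was 3.16 to 3.56 on the naive and 3.94 to 4.11 on the Th1 arrays. That of 2 gamma-delta T cell markers was 0.66 to 0.82 on the naive and 0.1 to 0.35 on the Th1 arrays. The summed levels of NKT, neutrophil and stromal cell markers overlapped between the groups. The part of all these cells in the results was not tested. The red cell gene Hba-a1 was at -0.55 and 0.36 on Th1 replicates 1 and 2, and at -4.85 on replicate 3 and -4.81 to -3.36 on the naive arrays. The share of probes above background was 53.4% to 58.3% over the arrays. The 3 naive arrays shared slide 1, which was 1 scan, with Th1 replicate 1, and Th1 replicates 2 and 3 were on slide 2 with 2 Th17 arrays. A value marked "within slide 1" comes from the 3 naive arrays and Th1 replicate 1 alone. Itgam was at 1.18 and Csf1r at -0.405 within slide 1.

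Many of the measured genes differed between the populations, and with the processed signal the largest differences were mainly rises. Of the 19135 genes 10300 were called (53.8%), 4495 higher (23.5%) and 5805 lower (30.3%) in Th1 cells. Changes of at least 2-fold were called for 3960 genes (20.7%), 2224 higher (11.6%) and 1736 lower (9.07%). With a normexp background correction in which high local backgrounds were replaced, these were 1126 and 1098. With the processed signal, the balance turned with size. Among called genes with a change under 0.5 on the log2 scale 31.1% were higher, against 51.5% between 1 and 2. At 4 or more it was 85.8%, with 266 genes higher and 44 lower. Genes near background are among these, and their changes can be smaller after normexp. Npy was then at 1.49 in place of 5.14 and Dapk1 at -1.93 in place of -5.2. The balance by size after normexp was not counted. The 3 Th1 arrays all lay above the 3 naive arrays for 5370 genes (28.1%) and all below for 7130 (37.3%), together 65.3% of all genes. The median change over all genes was -0.092. With the scale set on probes above background on all 9 arrays this median was 0.055, and 55.1% of called genes were higher in place of 43.6%, so that small changes keep no firm direction. The share called was 41.2% with slide as a block, 45.2% to 50.7% on leaving out 1 array and 34.1% within slide 1, where 6532 genes were called, 3202 higher and 3330 lower. Pearson's r across genes was 0.989 to 0.992 between arrays of a group and 0.932 to 0.941 between arrays of different groups, with genes not being independent replicates.

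**Figure D1:**
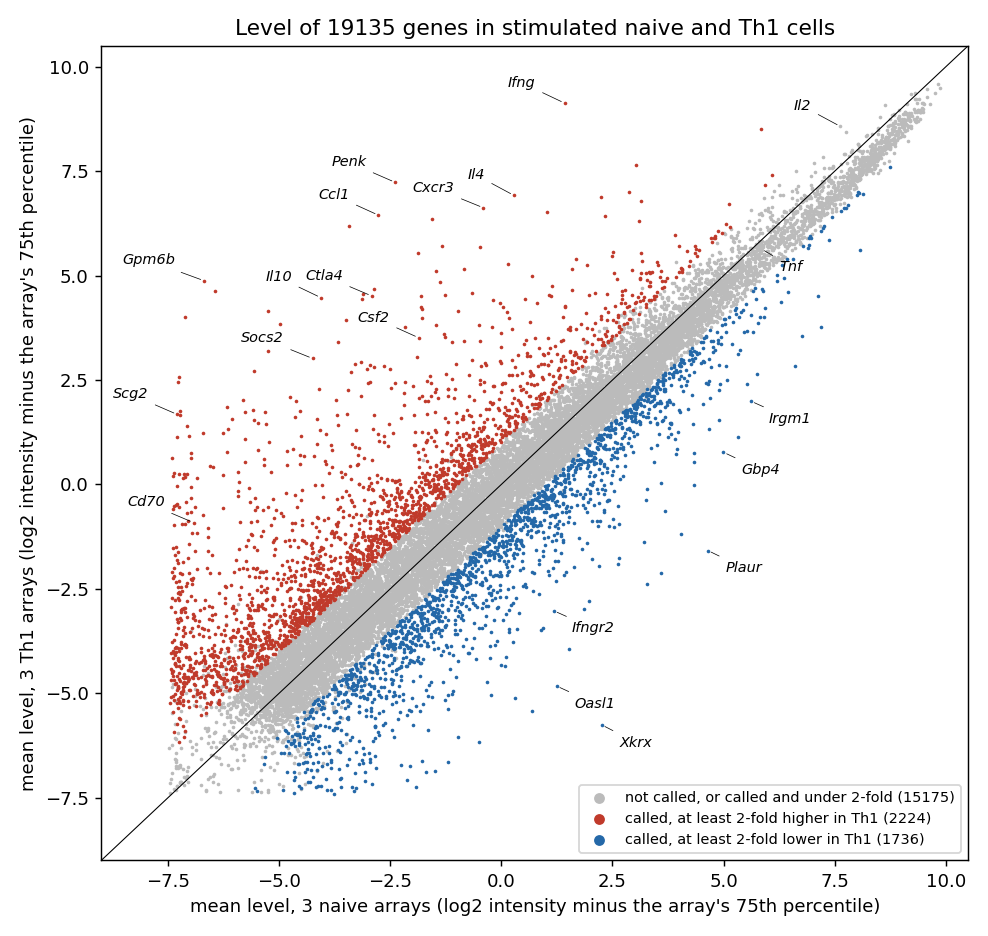
Mean level of each of the 19135 genes on the 3 naive arrays (horizontal axis) and the 3 Th1 arrays (vertical axis), both as log2 intensity minus the array's 75th percentile. The line marks equal levels; the 2224 genes called at least 2-fold higher in Th1 (red) spread far above it, reaching Ifng, Penk and Gpm6b, and the 1736 called at least 2-fold lower (blue) reach Xkrx, Plaur and Irgm1.

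Gene groups were taken from 41 lists that hold 880 different genes. The array carried 869 of these under a symbol, and 799 passed the filter on dim probes. Members that did not pass it are not in the counts, and a gene could pass it through 1 group alone. Among the 799 genes 237 rose and 290 fell, to be read against the 23.5% and 30.3% of all genes. The counts of each list below are to be read against the same shares. Rises and falls near those shares are no trait of a list. With the processed signal, the highest medians were those of inhibitory receptors, chemokines and cytokines, and the lowest were those of interferon-inducible GTPases, interferon-stimulated genes and naive cell genes. No list was tested as a whole, since the lists were written with earlier results of these data known.

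**Figure D2:**
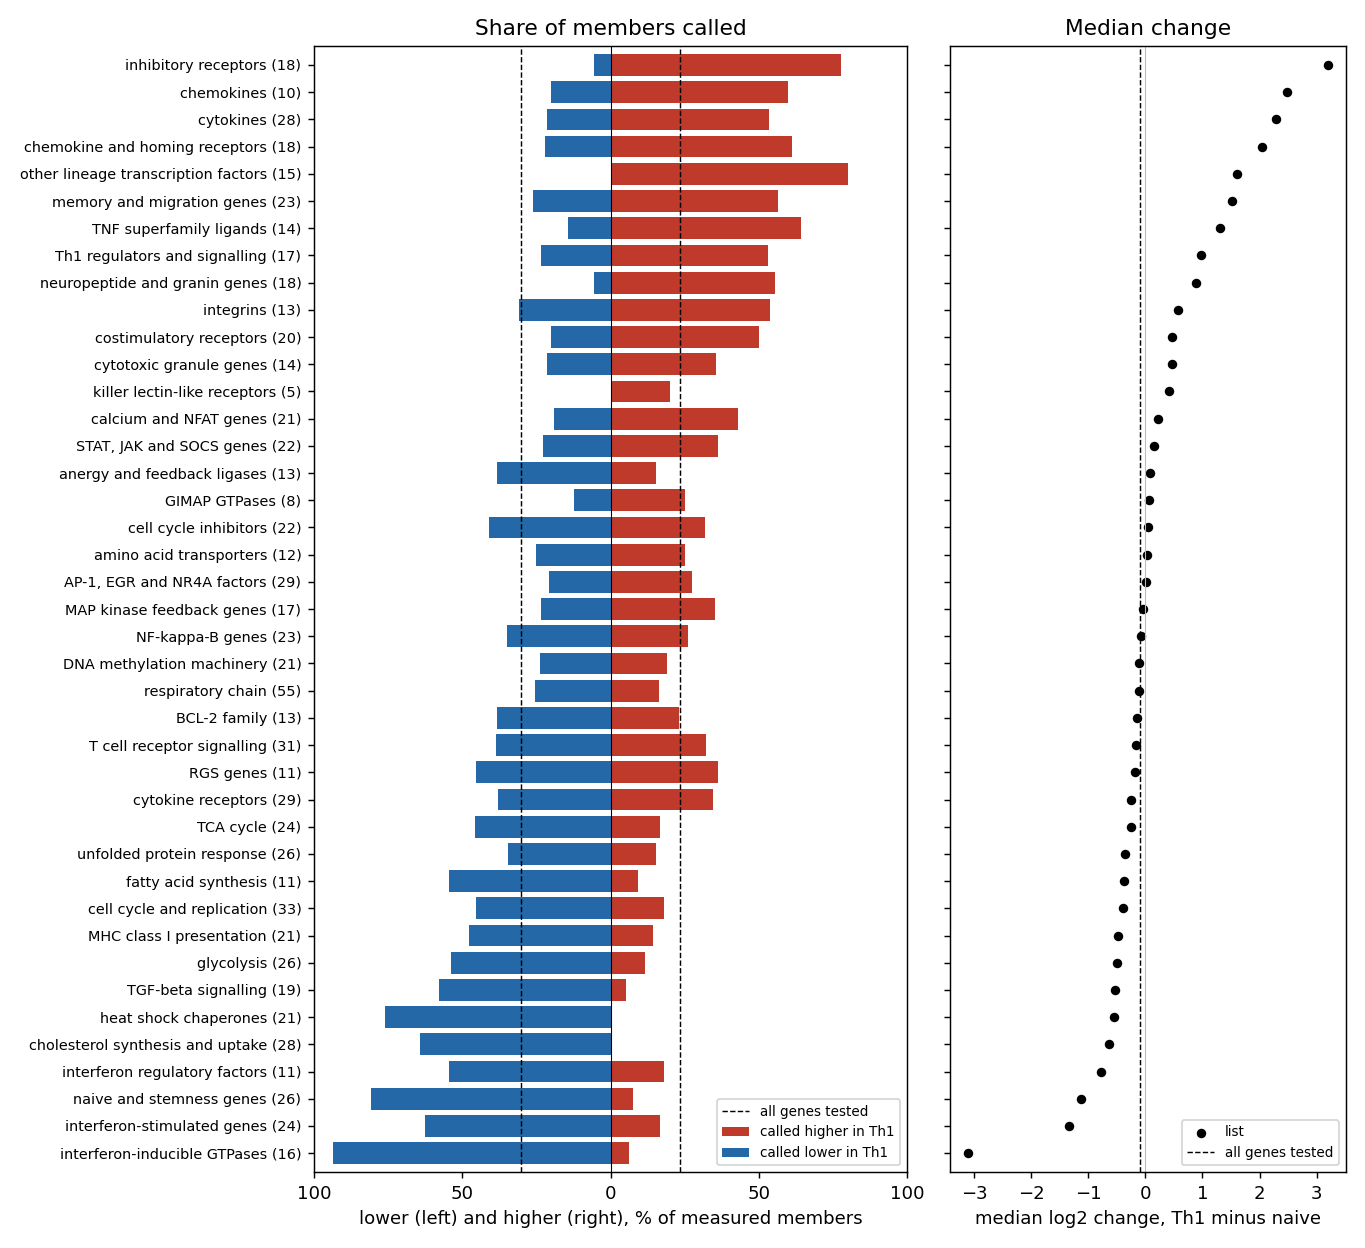
Left, the share of each list's measured members (their number in brackets) that was called higher (red, to the right) or lower (blue, to the left) in Th1 cells, with dashed lines at the 23.5% and 30.3% of all genes; right, the median log2 change of the list, with a dashed line at the -0.092 of all genes. Lists run from a median of 3.19 for inhibitory receptors at the top to -3.1 for interferon-inducible GTPases at the bottom.

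Interferon gamma acts through a receptor of 2 chains, IFNGR1 and IFNGR2, whose kinases activate STAT factors, while type I interferons act through STAT2 and IRF9. Their targets include immunity-related GTPases, antiviral proteins and the antigen-presentation machinery. In Th1 cells, the population gated for the cytokine, most of these targets were lower than in naive cells. Ifngr2 stood at 1.05, 1.51 and 0.99 on the naive arrays and -3.38, -2.3 and -3.4 on the Th1 arrays and fell by 4.21 ± 0.35 (adjusted p = 3e-05). The other chain, Ifngr1, fell by 0.76 ± 0.19, and with slide as a block its change was -0.43 and not called (adjusted p = 0.202). Of the type I receptor chains, Ifnar1 fell by 0.84 ± 0.22 and Ifnar2 was at -0.27 ± 0.13 (not called).

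Of 17 interferon-inducible GTPases listed, 16 were measured, 15 fell and 1 rose, with a median of -3.1 (-3.14 within slide 1). These proteins attack the vacuoles in which intracellular microbes live. Gbp4, a guanylate-binding protein, stood at 4.95, 5.14 and 4.9 on the naive arrays and 0.59, 1.41 and 0.31 on the Th1 arrays. Irgm1, an immunity-related GTPase that regulates the others of its family, stood at 5.39, 5.97 and 5.5 on the naive arrays and 1.81, 2.52 and 1.65 on the Th1 arrays. Every naive array lay above every Th1 array for both genes, by 4.23 ± 0.36 and 3.62 ± 0.27 on average. Gbp8 fell by 4.77 ± 0.36, Gbp9 by 3.64 ± 0.18, Gbp2 by 3.58 ± 0.24, Igtp by 3.45 ± 0.21 and Ifi47 by 3.23 ± 0.23. Tgtp2 fell by 3.77 ± 0.5 and its near copy Tgtp1 by 2.89 ± 0.41; members of these families are similar enough that a probe may take up RNA of a neighbour. Gbp3 ran against the group at 0.59 ± 0.13, and its change was 0.55 and not called with slide as a block (adjusted p = 0.0578).

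Of 32 interferon-stimulated genes listed 24 were measured, 15 fell and 4 rose (median -1.34, with -1.47 within slide 1 and -0.65 after normexp). Usp18, which removes ISG15 from proteins and dampens the interferon receptor, stood at 1.41, 2.01 and 2.18 on the naive arrays and -2.45, -3.22 and -3.29 on the Th1 arrays. Oasl1, an antiviral protein of the oligoadenylate synthetase family, was at -6.07 ± 0.48 (above background on 1 of 3 Th1 arrays), and Ifit3, which binds viral RNA in a complex with its relatives, was at least 14.8-fold lower. Ifit1 fell by 3.6 ± 0.33, Rtp4 by 3.12 ± 0.34, the ubiquitin-like Isg15 by 2.87 ± 0.21, the mono-ADP-ribosyltransferase Parp14 by 2.05 ± 0.2 and the nucleic acid sensor Zbp1 by 2.01 ± 0.22. The RNA sensors of the RIG-I family parted. Ifih1, which encodes MDA5, stood at -0.31, -0.21 and -0.035 on the naive arrays and 4.16, 4.56 and 4.56 on the Th1 arrays, so that all Th1 arrays lay above all naive arrays, while Ddx58, which encodes RIG-I, fell by 2.0 ± 0.22. Ifi27 rose by 1.66 ± 0.23.

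Promoters of interferon genes are shown because most of the GTPases fell and most of their promoters hold the same letters. GAAANNGAA, the core of the element bound by interferon-activated factors, was searched on both strands of RefSeq promoters (build GRCm38.p6, 250 bases before to 50 after each start). It was found for 9 of 10 of the GTPases with a promoter in the table and 10 of 16 of the interferon-stimulated genes, against 9.8% of all 27025 genes in the table. Genes called at least 2-fold lower held it in 9.4% of cases and genes called at least 2-fold higher in 10.4%. TTCNNNGAA, an element bound by STAT dimers and added to the search after levels had been seen, was found for 6 of 10 of the GTPases and 9.6% of all genes. The motif was thus present in genes that fell and in genes that rose. A match is a description of these letters and not a site. The 250 bases before the start follow for Gbp2, Irgm1 and Ifit3, which were lower in Th1 cells, and for Ifih1 and Gbp3, which were higher, with matches to GAAANNGAA on either strand in capitals. The 2 matches of Irgm1 overlap, as do the 2 of Gbp3.
Gbp2 (chr3:142620413-142620662, plus strand): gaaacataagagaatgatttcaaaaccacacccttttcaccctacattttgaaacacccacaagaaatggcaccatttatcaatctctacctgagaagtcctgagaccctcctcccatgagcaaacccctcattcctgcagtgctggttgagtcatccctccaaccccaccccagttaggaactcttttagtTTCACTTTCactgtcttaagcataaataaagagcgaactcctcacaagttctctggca
Irgm1 (chr11:48871421-48871670, minus strand): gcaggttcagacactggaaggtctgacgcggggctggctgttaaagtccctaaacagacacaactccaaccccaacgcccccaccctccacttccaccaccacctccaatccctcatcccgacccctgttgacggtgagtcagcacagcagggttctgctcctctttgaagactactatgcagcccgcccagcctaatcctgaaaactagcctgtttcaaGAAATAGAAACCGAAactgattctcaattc
Ifit3 (chr19:34583279-34583528, plus strand): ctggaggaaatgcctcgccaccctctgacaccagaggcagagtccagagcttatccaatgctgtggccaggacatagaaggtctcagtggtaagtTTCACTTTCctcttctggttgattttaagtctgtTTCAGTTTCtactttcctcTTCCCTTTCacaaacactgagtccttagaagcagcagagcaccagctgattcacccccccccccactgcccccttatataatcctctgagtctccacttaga
Ifih1 (chr2:62646256-62646505, minus strand): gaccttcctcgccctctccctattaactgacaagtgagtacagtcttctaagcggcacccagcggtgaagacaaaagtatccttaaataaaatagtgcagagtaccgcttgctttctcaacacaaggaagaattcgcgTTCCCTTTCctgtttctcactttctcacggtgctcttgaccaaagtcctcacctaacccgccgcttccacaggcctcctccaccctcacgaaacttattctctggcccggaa
Gbp3 (chr3:142559794-142560043, plus strand): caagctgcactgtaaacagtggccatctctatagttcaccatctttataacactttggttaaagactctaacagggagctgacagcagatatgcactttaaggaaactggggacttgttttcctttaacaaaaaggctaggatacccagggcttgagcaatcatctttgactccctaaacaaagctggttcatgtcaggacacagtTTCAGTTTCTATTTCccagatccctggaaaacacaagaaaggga

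The factors that drive these targets were lower as well, with exceptions. Among 11 interferon regulatory factors and cofactors, 6 fell and 2 rose. Irf1, induced by interferon gamma, stood at 5.25, 4.57 and 4.34 on the naive arrays and 2.57, 3.34 and 2.51 on the Th1 arrays. Irf7, the amplifier of type I interferon, fell by 2.39 ± 0.26, Irf5 by 1.97 ± 0.36 and Irf9, the DNA-binding partner of STAT2, by 1.2 ± 0.095. Irf2, which competes with IRF1 for its sites, rose by 1.91 ± 0.15. Stat2 fell by 1.91 ± 0.17. Of 21 class I presentation genes 10 fell and 3 rose (median -0.48, and -0.24 within slide 1). Tap1, a chain of the peptide transporter, fell by 1.17 ± 0.16 and Tapbpl, a peptide editor, by 1.9 ± 0.16. After quantile normalization 6 fell and 5 rose. The class I light chain B2m and heavy chain H2-K1 were at -0.076 ± 0.11 and -0.073 ± 0.14 (neither called), and after quantile normalization both were called higher, at 0.40 and 0.42. A dimmer probe of H2-K1 was called lower, at -0.52.

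**Figure D3:**
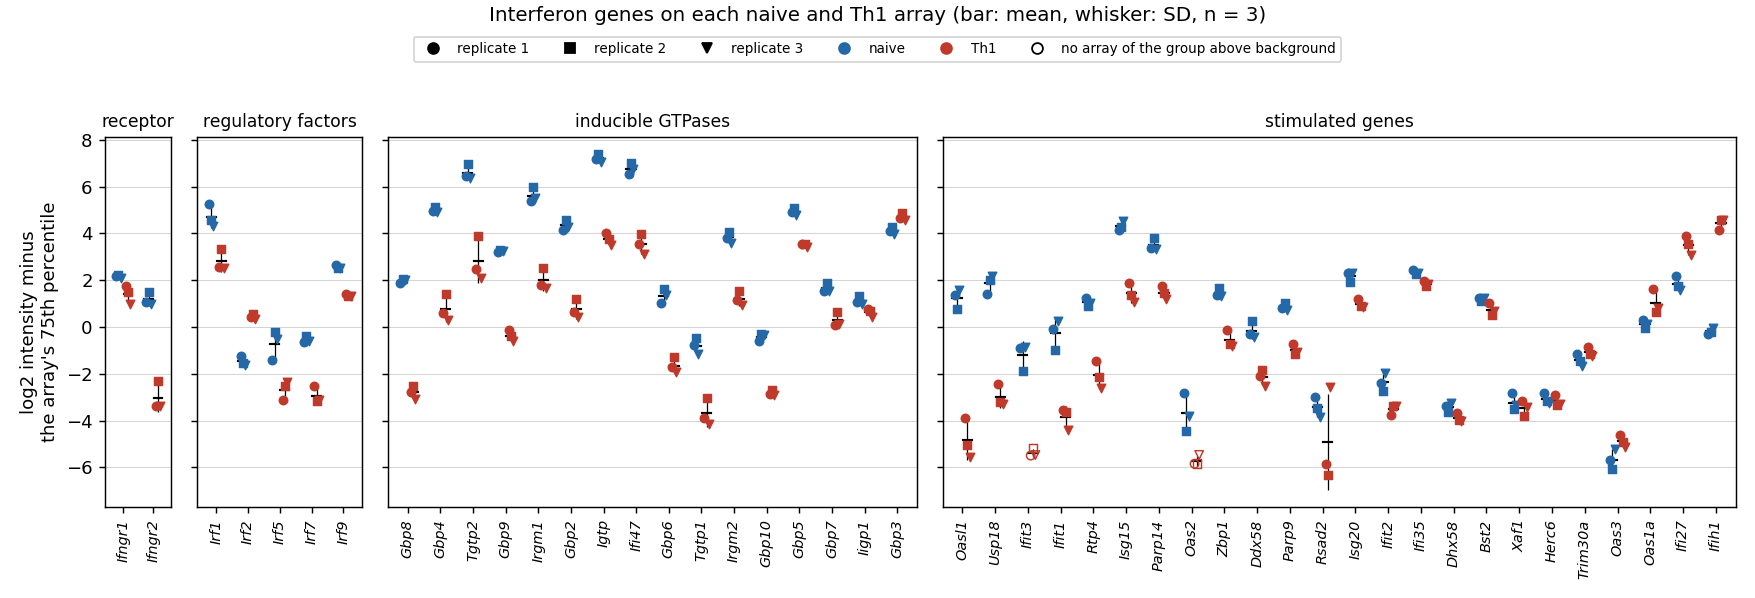
Level of interferon receptor, regulatory factor, inducible GTPase and interferon-stimulated genes on each of the 3 naive (blue) and 3 Th1 (red) arrays, as log2 intensity minus the array's 75th percentile (bars are means, whiskers SD, open symbols a group with no array above background). The naive arrays lie above the Th1 arrays for 15 of 16 GTPases, and Ifih1, Ifi27, Irf2 and Gbp3 are among the genes that lie the other way.

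Among Th1 regulators the chains of the IL-18 receptor, Stat4 and several other transcription factors were higher in Th1 cells. Of 18 genes listed 17 were measured, 9 rose and 4 fell. Il18rap, the accessory chain of the IL-18 receptor, was at least 49.3-fold higher, and its partner chain Il18r1 stood at -1.07, -3.74 and -3.82 on the naive arrays and 1.98, 1.85 and 1.14 on the Th1 arrays. Stat4, which carries the IL-12 signal, rose by 2.97 ± 0.12. The transcription factors Zeb2, Prdm1 (Blimp-1), Id2 and Bhlhe40 rose by 3.13 ± 0.12, 2.12 ± 0.4, 1.91 ± 0.16 and 1.61 ± 0.096. Tbx21, which encodes T-bet, stood at 4.67, 5.07 and 4.56 on the naive arrays and 4.98, 5.04 and 4.74 on the Th1 arrays, and its groups overlapped (0.15 ± 0.16, adjusted p = 0.464). Runx3, a partner of T-bet, fell by 1.3 ± 0.19 and Il27ra, a chain of the IL-27 receptor, by 0.86 ± 0.11.

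Transcription factors that mark other helper lineages were higher too. Of 15 measured 12 rose and the other 3 were not called (median 1.6, and 2.45 within slide 1). Foxp3, the regulator of regulatory T cells, stood at -2.48, -2.54 and -2.54 on the naive arrays and 1.04, 1.93 and 1.37 on the Th1 arrays. Maf, which drives Il10 and Il4, rose by 4.82 ± 0.31, Zbtb32 by 4.38 ± 0.18, Ahr, the aryl hydrocarbon receptor, by 4.31 ± 0.25, Rora by 2.72 ± 0.19, Pparg by 2.48 ± 0.27 and Bcl6, the follicular helper regulator, by 1.58 ± 0.13. Ikzf2, which encodes Helios, was at 8.84 ± 0.27 (above background on 2 of 3 naive arrays). Gata3, the Th2 regulator, was at 0.52 ± 0.2 (adjusted p = 0.0532) and Irf4 at -0.17 ± 0.095 (adjusted p = 0.158), neither called. Gata3 was called higher under 7 alternatives, among them the fit of the 6 arrays alone.

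Th1 cells carried RNA of many cytokines beside the one used to sort them. Of 30 cytokine genes listed 28 were measured, 15 rose and 6 fell (median 2.29, with 2.92 within slide 1 and 1.36 after normexp). Il10, which restrains inflammation, stood at -3.71, -3.75 and -4.72 on the naive arrays and 4.83, 4.32 and 4.26 on the Th1 arrays. Il4, the cytokine of Th2 cells, stood at -0.035, 0.88 and -0.0036 on the naive arrays and 7.37, 7.28 and 6.12 on the Th1 arrays. For both, every Th1 array lay above every naive array, by 8.53 ± 0.31 and 6.64 ± 0.37. The mast cell and basophil genes Mcpt8, Cpa3, Fcer1a and Ms4a2 were above background on no array, while Kit fell. The cells behind the Il4 RNA were not tested. Il13 rose by 7.92 ± 0.69, the myeloid growth factor Csf2 by 5.37 ± 0.46, the epidermal growth factor family member Areg by 4.45 ± 0.43, Ebi3 by 4.13 ± 0.13, Il3 by 3.64 ± 0.45, Il21, which helps B cells, by 3.56 ± 0.4, and Il22, which acts on epithelia, by 2.39 ± 0.47. Il2, the cytokine that naive cells release on activation, stood at 7.13, 7.87 and 7.88 on the naive arrays and 8.63, 8.74 and 8.34 on the Th1 arrays, and rose by 0.95 ± 0.22. With slide as a block its change was 1.01 and not called (adjusted p = 0.0516). Tnf, the inflammatory cytokine of both populations, stood at 5.41, 6.14 and 6.0 on the naive arrays and 5.18, 5.97 and 5.77 on the Th1 arrays, with overlapping groups (-0.21 ± 0.25, adjusted p = 0.511). Ltb, which encodes the membrane anchor of lymphotoxin, stood at 6.59, 7.41 and 7.36 on the naive arrays and 3.12, 5.55 and 4.86 on the Th1 arrays and fell by 2.61 ± 0.61. Tgfb1 fell by 0.94 ± 0.14 and Il16 by 1.2 ± 0.22.

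Of 22 chemokine genes listed 10 were measured, 6 rose and 2 fell. Ccl1, the ligand of CCR8, stood at -1.92, -2.38 and -4.0 on the naive arrays and 6.39, 6.87 and 6.08 on the Th1 arrays and rose by 9.22 ± 0.49. The inflammatory chemokines Ccl3, Ccl4 and Ccl5 rose by 3.96 ± 0.68, 4.11 ± 0.38 and 4.22 ± 0.38. Cxcl10, an interferon-induced ligand of CXCR3, ran the other way, at 2.11, 2.58 and 2.33 on the naive arrays and 0.099, 0.032 and -0.56 on the Th1 arrays. It fell by 2.48 ± 0.2, while its receptor Cxcr3 rose by 7.03 ± 0.17, and Cxcl9, another ligand, was at 0.22 ± 0.26 (not called). Cxcl16 fell by 0.93 ± 0.12 and its receptor Cxcr6 rose by 5.8 ± 0.22.

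Most measured chemokine and homing receptors were higher in Th1 cells, while the lymph node receptor Ccr7 was lower. Of 22 homing and chemokine receptor genes listed 18 were measured, 11 rose and 4 fell (median 2.04, with 2.22 within slide 1 and 0.79 after normexp). Ccr7, which leads cells into lymph nodes, stood at 7.29, 7.53 and 7.29 on the naive arrays and 5.73, 6.14 and 5.73 on the Th1 arrays. It fell by 1.51 ± 0.29, and S1pr4 by 0.94 ± 0.2. Ccr2, Ccr4 and Ccr8 rose by 3.84 ± 0.4, 2.14 ± 0.27 and 1.94 ± 0.19. Gpr15, a gut-homing receptor, was at least 2.91-fold higher, Ccr3 at least 6.83-fold and Xcr1 at least 2.54-fold, or 1.41-fold, 2.01-fold and 1.48-fold after normexp. Cxcr5, which leads to B cell follicles, rose by 1.77 ± 0.27. Cxcr4 was at 0.33 ± 0.19 and the gut receptor Ccr9 at -0.23 ± 0.4, neither called.

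Of 29 cytokine receptor genes 10 rose and 11 fell, and those of the IL-1 family were among the largest rises. Il1rl1, which encodes the IL-33 receptor ST2, stood at -5.48, -5.85 and -7.15 on the naive arrays and 1.74, 1.61 and 0.6 on the Th1 arrays. No naive array was above background, which gave a change of at least 89.8-fold. Il1r2, a decoy receptor for IL-1, stood at -1.61, -2.46 and -2.45 on the naive arrays and 3.66, 3.98 and 3.64 on the Th1 arrays and rose by 5.93 ± 0.3. Il7r, which receives the IL-7 survival signal, rose by 1.99 ± 0.19 and Il2rb, shared by the IL-2 and IL-15 receptors, by 1.73 ± 0.13. Il4ra, the IL-4 receptor chain, stood at -0.79, -0.51 and -0.79 on the naive arrays and -2.38, -2.41 and -2.29 on the Th1 arrays and fell by 1.67 ± 0.13. Il21r fell by 1.06 ± 0.18, Il17ra by 0.96 ± 0.18 and Il10rb by 0.93 ± 0.18. For IL-4 and IL-21 the cytokine gene thus rose where the receptor gene fell. Among STAT, JAK and SOCS genes 8 of 22 rose and 5 fell. Socs2, a feedback inhibitor of cytokine receptors, stood at -4.48, -4.12 and -4.15 on the naive arrays and 3.43, 2.93 and 2.69 on the Th1 arrays, the largest change of that list at 7.26 ± 0.19. Jak3, the kinase of the common gamma chain, rose by 1.65 ± 0.31 and Stat5a fell by 0.81 ± 0.090. Socs3, the feedback inhibitor of IL-6 type receptors, was at 1.55 ± 0.58 and not called (adjusted p = 0.0509). It was called higher under several alternatives, among them the fit of the 6 arrays alone and quantile normalization. With slide as a block it was at 2.59 (adjusted p = 0.0115), and without Th1 replicate 1 at 1.03 (adjusted p = 0.154, not called).

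Inhibitory receptors were higher as a group. Of 18 genes 14 rose and 1 fell, with a median of 3.19 (3.13 within slide 1 and 1.57 after normexp). Tigit, which competes for the ligands of CD226, stood at -2.47, -3.04 and -3.37 on the naive arrays and 2.9, 1.95 and 2.47 on the Th1 arrays. Havcr2, which encodes TIM-3, stood at -3.32, -4.52 and -3.26 on the naive arrays and 1.76, 1.69 and 1.56 on the Th1 arrays. Every Th1 array lay above every naive array for both, by 5.4 ± 0.42 and 5.37 ± 0.31. Ctla4 rose by 7.43 ± 0.38, Pdcd1 (PD-1) by 4.31 ± 0.22, Cd200 by 3.9 ± 0.26 and Cd160 by 2.68 ± 0.43. Klrg1, a marker of terminal effector cells, was at least 3.04-fold higher and the ectoenzyme Entpd1 (CD39) at least 7.82-fold, or 1.5-fold and 2.3-fold after normexp. Of the PD-1 ligands Pdcd1lg2 rose by 2.91 ± 0.14 and Cd274, which encodes PD-L1 and is induced by interferon, stood at 4.95, 5.05 and 5.08 on the naive arrays and 3.52, 4.15 and 4.19 on the Th1 arrays and fell by 1.07 ± 0.19. Vsir and Lair1 were at -0.040 ± 0.11 and -0.29 ± 0.15 (neither called).

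Costimulatory receptors and TNF family ligands showed a mixed pattern. Of 20 costimulatory genes 10 rose and 4 fell. Icos rose by 4.15 ± 0.28, Cd226, the activating rival of TIGIT, by 3.91 ± 0.23, and Tnfrsf4 (OX40) by 2.67 ± 0.11, while Cd27 fell by 1.74 ± 0.15 and Fas by 0.97 ± 0.14. Tnfrsf18 (GITR) was at -0.11 ± 0.14 (not called). Of 14 TNF family ligands 9 rose and 2 fell. Cd70, the ligand of CD27, stood at -6.95, -7.13 and -6.7 on the naive arrays and -1.31, -0.95 and -0.49 on the Th1 arrays, above background on no naive array and at least 19.1-fold higher. Tnfsf11, which encodes the osteoclast factor RANKL, stood at -0.68, -1.19 and -0.13 on the naive arrays and 4.54, 4.75 and 4.45 on the Th1 arrays. Tnfsf10 (TRAIL) rose by 3.71 ± 0.27 and Tnfsf14 (LIGHT) by 3.38 ± 0.18. Cd40lg, the ligand by which helper cells activate B cells, was at -0.018 ± 0.2 with overlapping groups (adjusted p = 0.947).

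**Figure D4:**
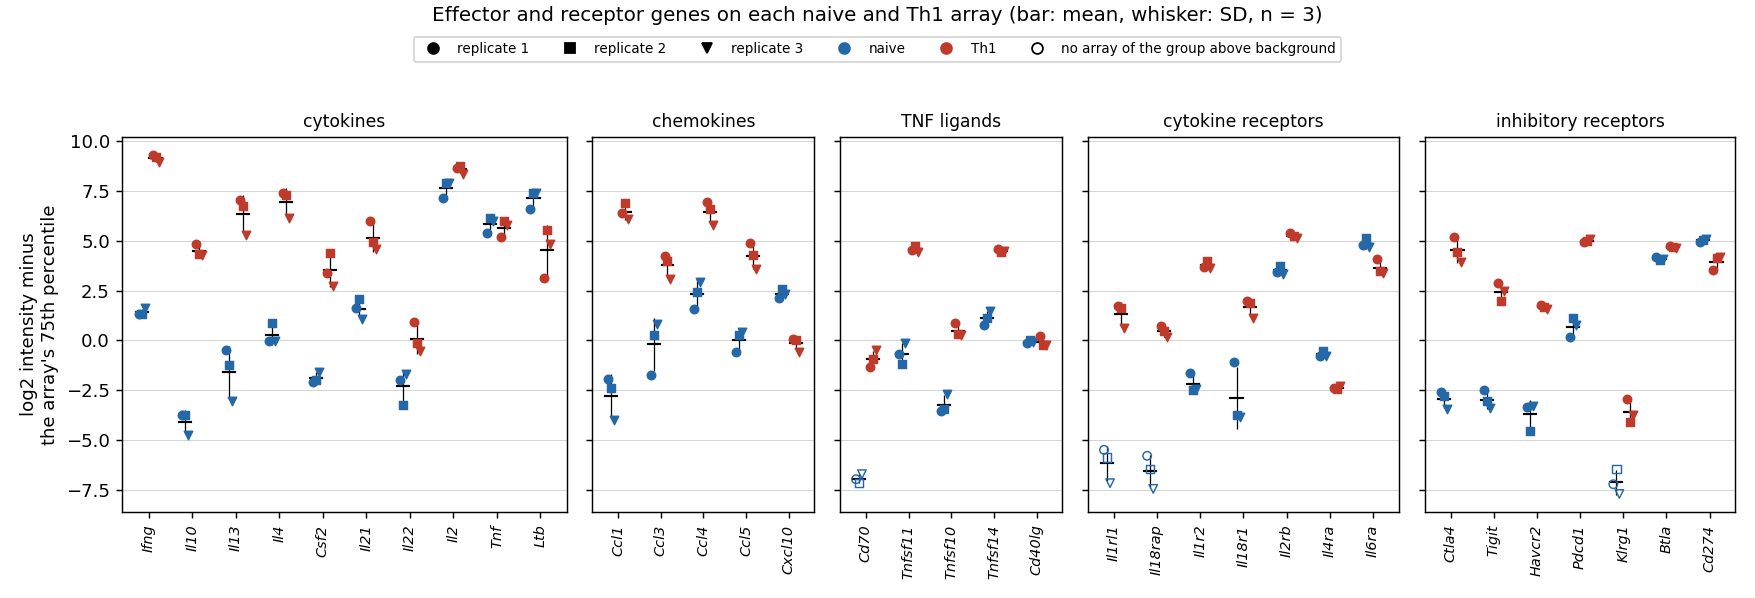
Level of cytokine, chemokine, TNF ligand and receptor genes on each of the 3 naive (blue) and 3 Th1 (red) arrays, as log2 intensity minus the array's 75th percentile (bars are means, whiskers SD, open symbols a group with no array above background). The groups overlap for Tnf and Cd40lg, Ltb, Cxcl10, Il4ra and Cd274 are lower in Th1 cells, and the other genes shown, except Il6ra, are higher.

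Cytotoxic granule genes did not move together. Of 14 measured 5 rose and 3 fell. Prf1, which encodes perforin, fell by 1.02 ± 0.13 and Serpinb9, an inhibitor of granzyme B, by 1.2 ± 0.28, while Nkg7 rose by 1.26 ± 0.11 and Ctsw by 1.2 ± 0.3. A dimmer probe of Nkg7 was at 4.27. Gzma, a granule protease, was at 2.73 on Th1 replicate 1 against -0.58 and -0.19 on the other Th1 arrays and -2.6, -0.6 and -0.19 on the naive arrays. Gzmb was at 2.70 on that same array against -0.020 and 0.41, and neither gene was called. With slide as a block, which rests on that array, Gzma was at 3.86 (adjusted p = 0.0358) and Gzmb at 2.24 (adjusted p = 0.0459), both called. The summed NK cell markers and Cd8b1 were lower in the Th1 group, and Cd8a was above background on no array. The cells behind the high values of Th1 replicate 1 were not tested. Of killer lectin-like receptors 5 of 14 listed were measured, 1 rose and the other 4 were not called. Th1 replicate 1 also stood highest in Il9 (4.35 against 1.77 and 0.79) and S100a9 (-0.73 against -3.47 and -6.36).

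Genes of the naive state fell. Of 26 listed and measured 21 fell and 2 rose, with a median of -1.13 (-1.43 within slide 1). Actn1, an actin cross-linker, stood at 1.38, 1.61 and 1.35 on the naive arrays and -2.1, -2.23 and -1.93 on the Th1 arrays. Lef1, the partner of TCF1, fell by 2.51 ± 0.16, Tob1, a brake on proliferation, by 2.19 ± 0.22, Satb1, a chromatin organiser, by 1.89 ± 0.25, Klf2, which drives S1pr1, by 1.62 ± 0.26 and Bach2 by 1.06 ± 0.18. A dimmer probe of Bach2 was at -0.31 and not called. Igfbp4 was at least 7.04-fold and Treml2 at least 7.81-fold lower. Tcf7, which encodes TCF1, was at -1.01 ± 0.33, a call that ended on leaving out Th1 replicate 1 or any 1 of the naive arrays (adjusted p up to 0.0935, change -0.75 to -1.09). Foxp1, which holds T cells in quiescence, rose by 0.54 ± 0.12. Dimmer probes of Foxp1 were at 0.55 (called) and -0.28 (not called), and it was not called with its probes averaged.

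Of 23 genes of memory and migration 13 rose and 6 fell (median 1.52, with 1.96 within slide 1 and 0.95 after normexp). S100a6, a calcium-binding protein, stood at -3.2, -2.94 and -3.71 on the naive arrays and 3.68, 2.87 and 2.13 on the Th1 arrays, and its relatives S100a4 and S100a11 rose by 6.11 ± 0.41 and 2.1 ± 0.32. The galectins parted, with Lgals3 and Lgals1 higher by 3.09 ± 0.44 and 2.45 ± 0.26 and Lgals9 lower (-1.69 ± 0.16). Cd44, the classic memory marker, rose by 1.71 ± 0.19, while Selplg, the selectin ligand, fell by 2.15 ± 0.18. Dimmer probes of Cd44 were at 0.97 to 3.0. Among 13 integrin genes 7 rose and 4 fell. Itgav and Itgb1 rose by 3.64 ± 0.19 and 2.09 ± 0.13, and Itgb8, which pairs with the alpha v chain to activate TGF-beta, was at least 12.5-fold higher. Itga6, a laminin receptor chain, fell by 2.83 ± 0.14 and Itgb3 by 2.37 ± 0.32.

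Signalling genes changed member by member rather than as lists. Of 31 T cell receptor genes 10 rose and 12 fell, beside 23.5% and 30.3% of all genes. Cd3g, a chain of the receptor complex, stood at 1.55, 1.33 and 1.4 on the naive arrays and 4.49, 4.2 and 4.13 on the Th1 arrays, and Themis, an adaptor, rose by 2.38 ± 0.16. Txk, a Tec family kinase, stood at 2.71, 2.63 and 2.58 on the naive arrays and -0.56, -0.9 and -1.41 on the Th1 arrays. Its relative Tec fell by 2.29 ± 0.33. Zap70, the kinase that binds the receptor's phosphorylated chains, was at -0.094 ± 0.11 (not called). Among calcium and NFAT genes 9 of 21 rose and 4 fell. Of the catalytic chains of calcineurin, Ppp3cb and Ppp3cc rose by 1.03 ± 0.11 and 1.24 ± 0.14 and Ppp3ca fell by 1.26 ± 0.14. Nfat5 rose by 2.03 ± 0.15.

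Immediate early genes are those that stimulation induces within the hour in any T cell, and several did not pass the test. Of 29 AP-1, EGR and NR4A factors 8 rose and 6 fell, beside 23.5% and 30.3% of all genes. Egr1, Nr4a1, Junb and Fosb were at 0.063 ± 0.18, -0.19 ± 0.19, 0.078 ± 0.17 and -0.045 ± 0.17, none of them called. Egr4 departed from its family, at -1.56, -1.76 and -2.64 on the naive arrays and 2.58, 2.31 and 2.14 on the Th1 arrays. Nfil3 rose by 3.46 ± 0.25, and Fosl1 and Maff fell by 2.05 ± 0.16 and 1.45 ± 0.12. In the NF-kappa-B list, with 6 of 23 higher and 8 lower, the inhibitors Tnfaip3 (A20) and Nfkbie fell by 1.19 ± 0.13 and 1.21 ± 0.12 and Ikbkg, the regulatory subunit of the kinase, rose by 1.57 ± 0.2. Of MAP kinase feedback genes 6 of 17 rose and 4 fell, and the phosphatases among them split. Dusp14 stood at -1.69, -0.69 and -0.95 on the naive arrays and 3.36, 3.47 and 3.41 on the Th1 arrays and Dusp4 at 0.062, -0.021 and 0.31 on the naive arrays and 3.95, 4.22 and 4.19 on the Th1 arrays, and Dusp8 fell by 2.75 ± 0.25 and Dusp16 by 1.27 ± 0.13. Of regulators of G protein signalling 4 of 11 rose and 5 fell: Rgs16 stood at 1.14, 0.91 and 1.03 on the naive arrays and 6.55, 6.51 and 6.5 on the Th1 arrays and Rgs10 at 4.76, 4.92 and 4.99 on the naive arrays and 2.29, 2.34 and 2.14 on the Th1 arrays. Rgs16 rose by 5.5 ± 0.14, Rgs1 by 2.54 ± 0.24, Rgs10 fell by 2.64 ± 0.14 and Rgs14 by 1.43 ± 0.16, so that members of 1 family differed in opposite directions. Of 13 feedback ligases and kinases of anergy 2 rose and 5 fell. The diacylglycerol kinases Dgkd and Dgke fell by 1.42 ± 0.086 and 1.21 ± 0.13. Rnf128, the ligase GRAIL, was at 3.54 ± 0.19. That value rests on 2 of 3 Th1 arrays, both above background, as Th1 replicate 2 had no usable value.

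Of 21 heat shock genes measured 16 fell and the other 5 were not called, with a median of -0.54 (-0.53 within slide 1, where 9 fell). The number that fell was 9 after quantile normalization. Dnajb4, a co-chaperone, stood at 0.11, 0.080 and 0.023 on the naive arrays and -4.37, -4.34 and -4.32 on the Th1 arrays. Hspa2 fell by 2.1 ± 0.16, the stress factor Hsf2 by 1.67 ± 0.2, the small chaperone Hspb1 by 1.11 ± 0.21 and the cytosolic chaperone Hsp90aa1 by 0.61 ± 0.099. After quantile normalization Hsp90aa1 was at -0.22 and not called. Hspa1a, the inducible HSP70, was at 3.02, -1.39 and -0.69 on the naive arrays and at -5.21, -5.39 and -4.76 on the Th1 arrays, of which 1 was above background. With slide as a block its change was -5.52 (adjusted p = 0.0347, and 0.0899 within slide 1). The letters GAANNTTC, part of the heat shock element, were in the promoters of 9 of 17 of the chaperones with a promoter in the table and of 9.0% of all genes. In the unfolded protein response list 4 of 26 rose and 9 fell. The sensor kinase Eif2ak3 (PERK) fell by 1.66 ± 0.18, Atf4, its effector, by 1.12 ± 0.23 and Ppp1r15a, its feedback phosphatase subunit, by 1.69 ± 0.22, while Asns, the asparagine synthetase that ATF4 induces, rose by 3.05 ± 0.15.

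Of 28 genes of cholesterol synthesis and uptake 18 fell and the other 10 were not called (median -0.64, and -0.66 within slide 1). Fdps, which makes farnesyl diphosphate, stood at 2.89, 2.99 and 3.02 on the naive arrays and 0.71, 0.85 and 0.77 on the Th1 arrays. Mvd, a decarboxylase early in the pathway, stood at -1.98, -1.88 and -1.87 on the naive arrays and -3.74, -3.98 and -3.85 on the Th1 arrays. For both, every naive array lay above every Th1 array. Fdps fell by 2.19 ± 0.091, Mvd by 1.94 ± 0.11, Cyp51 by 1.62 ± 0.14 and Insig1, which retains the sterol-regulated factors in the endoplasmic reticulum, by 1.46 ± 0.16. The regulator Srebf2 was at -0.32 ± 0.25 (not called). Of fatty acid synthesis genes 6 of 11 fell, with the elongase Elovl5 at -1.86 ± 0.093 and Fads1, a desaturase, at -1.44 ± 0.19. The letters TCACNCCAC, the sterol element, were found in 1 of 20 of the cholesterol genes with a promoter, that of Hmgcs1, and in 1.4% of all genes.

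Isoforms of glycolytic enzymes ran in opposite directions. Of 26 glycolysis genes 14 fell and 3 rose (median -0.49, and -0.32 within slide 1). Of the hexokinases, Hk1 stood at 5.56, 5.96 and 5.48 on the naive arrays and 3.96, 3.47 and 3.52 on the Th1 arrays and Hk2 at 1.19, 1.63 and 1.33 on the naive arrays and 3.88, 2.69 and 2.64 on the Th1 arrays. Of the phosphofructokinases, Pfkl fell by 1.29 ± 0.15 and Pfkp rose by 1.08 ± 0.14. Pfkfb4, which sets the level of the activator of phosphofructokinase, fell by 2.86 ± 0.21 and the glucose transporter Slc2a3 by 2.32 ± 0.17, with Slc2a1 at 0.070 ± 0.21 (not called). Hif1a, the oxygen-sensing factor, rose by 1.0 ± 0.17, and Gapdh was at -0.050 ± 0.13 (not called), or 0.33 and called after quantile normalization. In the TCA cycle list 4 of 24 rose and 11 fell, with the mitochondrial dehydrogenase Idh2 at -2.78 ± 0.17 and Suclg2 at 1.14 ± 0.16. Of 55 respiratory chain genes 9 rose and 14 fell, and none was called at 2-fold or more. This list changed with the slide, as its median was -0.12 over all arrays and 0.005 within slide 1, where 2 rose and 2 fell. After quantile normalization 17 rose and 7 fell, so that its balance has no firm direction. In the list of amino acid transporters 3 of 12 rose and 3 fell, with the glutamine transporter Slc38a2 at -1.07 ± 0.1. Slc43a3, a member of that list not itself established as an amino acid transporter, was at 1.03 ± 0.17, or 0.41 after normexp.

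**Figure D5:**
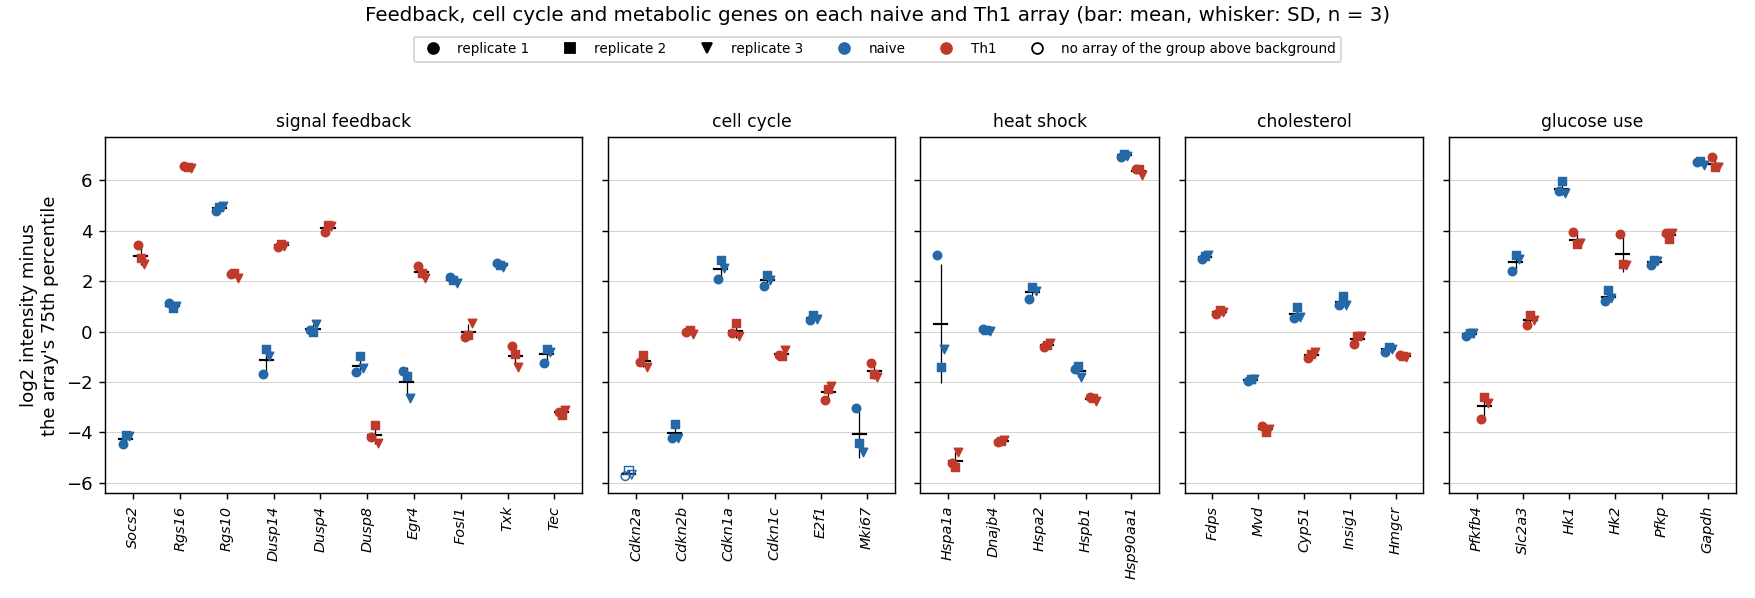
Level of signal feedback, cell cycle, heat shock, cholesterol and glucose genes on each of the 3 naive (blue) and 3 Th1 (red) arrays, as log2 intensity minus the array's 75th percentile (bars are means, whiskers SD, open symbols a group with no array above background). Families part between members, as Rgs16 against Rgs10, Dusp14 and Dusp4 against Dusp8 and Hk2 against Hk1. The cell cycle inhibitors Cdkn2b and Cdkn1a, of different families, also part, and Hspa1a spreads widely over the naive arrays.

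Inhibitors of the cell cycle changed in both directions. Of 22 genes 7 rose and 9 fell, beside 23.5% and 30.3% of all genes. The INK4 inhibitors of CDK4 and CDK6 were mostly higher: Cdkn2b, which encodes p15, stood at -4.23, -3.67 and -4.22 on the naive arrays and -0.028, 0.065 and -0.092 on the Th1 arrays, Cdkn2c was at 2.35 ± 0.19 (above background on 2 of 3 naive arrays), and Cdkn2a, which gives p16 and p19, was at least 15.9-fold higher, but Cdkn2d fell by 1.98 ± 0.31. The CIP and KIP inhibitors Cdkn1a, which encodes p21, and Cdkn1c, which encodes p57, fell by 2.45 ± 0.21 and 2.92 ± 0.14. Gadd45a, a growth arrest gene, fell by 2.21 ± 0.29, Slfn1 by 1.85 ± 0.16, and Rbl2 rose by 2.1 ± 0.19. Of 33 genes of cycling and replication 6 rose and 15 fell (median -0.38, and -0.37 within slide 1). E2f1, which promotes entry into S phase, stood at 0.46, 0.67 and 0.5 on the naive arrays and -2.73, -2.29 and -2.14 on the Th1 arrays. Ccnd3, a D cyclin, fell by 1.83 ± 0.11, Cdk2 by 1.45 ± 0.22 and the replication licensing gene Cdt1 by 1.03 ± 0.18. The proliferation marker Mki67 rose by 2.5 ± 0.42, and with slide as a block it was at 2.82 (adjusted p = 0.0142, and 0.0514 within slide 1).

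Of 13 BCL-2 family genes 3 rose and 5 fell. The pro-apoptotic Bcl2l11 (BIM), Bax and Bid fell by 1.81 ± 0.099, 1.18 ± 0.17 and 1.07 ± 0.12, and Pmaip1 (NOXA) rose by 1.58 ± 0.26. The survival gene Bcl2l2 was at least 2.39-fold higher, or 1.41-fold after normexp, and Bcl2 was at -0.16 ± 0.11 (not called). Of 19 TGF-beta pathway genes 11 fell and 1 rose (median -0.53, and -0.48 within slide 1, where 7 fell). The rise was that of Bmpr2, a receptor for bone morphogenetic proteins, at -2.25, -1.93 and -2.37 on the naive arrays and 2.44, 1.79 and 1.49 on the Th1 arrays. The ligases Smurf1 and Smurf2, which degrade receptors and SMADs, fell by 1.19 ± 0.1 and 1.3 ± 0.11, and the receptors Tgfbr1 and Tgfbr2 were at -0.25 ± 0.28 and -0.27 ± 0.14 (neither called). Of the GIMAP GTPases of lymphocyte survival 2 of 8 rose and 1 fell, with Gimap3 at 0.9 ± 0.15 and Gimap9 at -1.55 ± 0.15. In the DNA methylation machinery 4 of 21 rose and 5 fell, beside 23.5% and 30.3% of all genes. Tet2, which oxidises methylcytosine, rose by 1.74 ± 0.16 and Uhrf2 by 0.96 ± 0.14, while the methyltransferase Dnmt3a was at -0.19 ± 0.33 (not called), or -0.9 and called with slide as a block (adjusted p = 0.0483). A dimmer probe of Uhrf2 was at 0.38 and not called.

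Several genes of neuropeptides and of the secretory granules that carry them were higher in Th1 cells. Of 24 listed 18 were measured, 10 rose, 1 fell and 7 were not called (median 0.89, with 0.58 within slide 1 and 0.21 after normexp). Penk, the precursor of enkephalin opioids, stood at -1.68, -2.17 and -3.31 on the naive arrays and 7.3, 7.29 and 7.11 on the Th1 arrays. Scg2, a granin of dense granules, stood at -7.15, -7.05 and -7.69 on the naive arrays and 1.04, 2.24 and 1.75 on the Th1 arrays, above background on no naive array and at least 115-fold higher. Npy, neuropeptide Y, was at least 7.57-fold higher. Scg5 and the prohormone convertase Pcsk2 rose by 1.9 ± 0.37 and 1.34 ± 0.19, and Oprm1, the mu opioid receptor, by 0.99 ± 0.19. Pomc, the precursor of endorphin, fell by 1.6 ± 0.18.

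The largest rises lay mostly outside the lists. Gpm6b, a membrane glycoprotein of neurons, stood at -5.27, -7.06 and -7.74 on the naive arrays and 4.89, 5.0 and 4.75 on the Th1 arrays, at least 1059-fold higher. Ccn4, a matricellular protein, was at least 893-fold, the tyrosine phosphatase Ptpn5 at least 215-fold, the dicarboxylate transporter Slc13a3 at least 198-fold, Angptl2 at least 114-fold and the adhesion receptor Vcam1 at least 94.6-fold higher. Nrn1, the membrane-anchored neuritin, stood at -3.27, -3.34 and -3.69 on the naive arrays and 6.18, 6.35 and 6.04 on the Th1 arrays and rose by 9.62 ± 0.17. Shtn1, a neuronal polarity protein, was at least 237-fold higher. Gm3002 and Gm2897, at least 147-fold and 131-fold higher, are predicted genes whose probes may take up RNA of near-identical copies, and they are reported as uncertain. Among the falls, Xkrx stood at 2.15, 2.3 and 2.31 on the naive arrays and -5.89, -5.47 and -5.92 on the Th1 arrays, at least 162-fold lower, and Tubb2b, a beta tubulin, was at least 54.5-fold lower. Plaur, the urokinase receptor, fell by 6.23 ± 0.33, Atp1b1, a sodium pump subunit, by 5.71 ± 0.2, Pdlim4, which binds actin filaments, by 5.66 ± 0.56 and Cnn3, a calponin, by 5.24 ± 0.16. Khdrbs3, an RNA-binding protein, was at least 23.8-fold, Dapk1, a death-associated kinase, at least 10.4-fold and Arhgap29 at least 9.88-fold lower.

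By detection alone, 410 genes, 246 of them with a symbol, were above background on all 3 Th1 and no naive arrays, and 232 genes, 168 with a symbol, on all 3 naive and no Th1 arrays. Of the first 392 and of the second 199 were called in the fit. The second flag of the software, which asks only for a signal different from background, left 128 and 12 such genes, so that the counts depend on the flag. Another 24 called genes were below background on all 6 arrays and are given no fold.

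The spread within groups was small for most genes, with a median SD of 0.165 over the Th1 and 0.142 over the naive arrays. The SD was over 1 for 242 genes with a symbol within Th1 and 251 within naive. Naive replicate 1 held Il17a at -0.24 against -4.68 and -4.16 and Il18r1 at -1.07 against -3.74 and -3.82, and it was also the array with the high Hspa1a. Il17a, whose protein the Th1 gate excluded, was at 0.55, -0.42 and -2.4 on the Th1 arrays and its change of 2.26 ± 1.15 was not called (adjusted p = 0.131). Without naive replicate 1 that change was 3.66 (adjusted p = 0.00563), which passes the threshold.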

How the data were processed

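Total RNA of 9 sorted samples was hybridised to 1-colour Agilent arrays, read with Feature Extraction 10.7.3.1 per the file headers (10.5 per the submitters' processing notes). The deposited intensity (gProcessedSignal) was already background-subtracted, per the file headers. The series' deposited log2 value table gave the same differences between arrays as these intensities, with 1 offset per probe whose baseline stays unknown. It was used only as an alternative, and the medians of its columns ran from -0.0959 to 0.2851.

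From each file the log2 intensity minus the array's 75th percentile over non-control spots was taken. Spots of a probe were averaged and the brightest probe stood for a gene. Of 39429 probes 27228 had a symbol, and 3308 genes had several probes, which gave opposite calls for 68. Probes of other genes could differ in size or in being called. Probes had to be well above background on at least 3 of 9 arrays. limma 3.58.1 (R 4.3.3) was fitted to all 9 arrays with 3 groups and tested on simulated data. No probe was saturated, and the number of arrays limits the precision. The main fit did not pair samples by replicate number, as no label states such a pairing.

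Members and lists were chosen with earlier results of these data known. Genes named are members of the lists, the 15 largest rises and falls, the 10 brightest genes detected in 1 group alone, and cell type markers. Gm3002 and Gm2897 belong to the latter brightest genes. Promoters are RefSeq's, build GRCm38.p6. Alternatives covered background correction, scaling, filters, slide, replicate block, probes and left-out arrays.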

Additional observations from a re-analysis of the deposited data

How the results depend on the processing

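Among the alternatives run, leaving out 1 array gave 8657 to 9708 called genes, and the slide as a random or fixed block gave 9714 and 7889. Within slide 1, with 1 Th1 array, 6532 genes were called, 3330 of them lower. The planned normexp correction called 1427 genes (776 higher, 651 lower), with 764 and 629 at least 2-fold; the cause was not tested. On Th1 replicate 2, 5 probes had local backgrounds over 3 times the array median, up to 128401, and on a Th17 array 1 probe did. With these 6 backgrounds replaced, an alternative chosen after seeing the data, 9244 were called, with 1126 and 1098 at least 2-fold. Detection by the weaker flag gave 128 and 12 genes in place of 410 and 232. Under the planned normexp correction 93 of 288 named genes lost their call in the same direction, and 2 changed sign, Foxp1 at -0.066 and Gbp3 at -0.031. After quantile normalization B2m was at 0.40, H2-K1 at 0.42 and Gapdh at 0.33, and the cause was not tested. Same-numbered samples correlated at -0.008, 0.014 and 0.117 in their deviations, and samples with different numbers at -0.085 to 0.065. From 3 arrays in each group these values cannot tell whether the numbers pair the samples. The replicate block called 10195 genes, 4482 higher and 5713 lower. Dim probes limit what can be said of genes near background.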
